A study of Mus musculus with 18 samples.

Results

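Immediate early genes encode transcription factors that cells switch on within a short time of a stimulus, without first making new protein. Their mRNAs are short-lived, so that their level at any moment reflects recent signalling. The members described here were 10 genes listed by name and matched by symbol in the deposited count table: Fos, Fosb, Jun, Junb, Jund, Egr1, Atf3, Nr4a1, Nr4a3 and Ier2. All 10 were found among 48709 genes and all 10 passed the filter on low counts.

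Fos, Fosb, Jun, Junb and Jund pair through leucine zippers to form AP-1, a factor that binds DNA as a dimer. Atf3 is a stress-induced member of the related ATF family, Egr1 is a zinc-finger factor, and Nr4a1 and Nr4a3 are orphan nuclear receptors. Ier2 is a nuclear protein induced together with them. In heart muscle, β-adrenergic receptors raise cyclic AMP, which activates protein kinase A and the factor CREB. CREB binds the cyclic AMP response element (CRE) in the promoters of several of these genes, and MAP kinases act on the same promoters through serum response factor.

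RNA came from the left ventricle of male wild-type C57BL/6J mice aged 12 weeks, with 6 libraries in each of 3 groups. Control mice received saline from an osmotic pump, and isoproterenol mice received isoproterenol, a synthetic agonist of β-adrenergic receptors, at 30 mg/kg/day. The third group received the same infusion with daily intraperitoneal minocycline, a tetracycline antibiotic, at 50 mg/kg, and mice without minocycline received saline injections. Hearts were taken after 21 days, and no group with minocycline alone was analysed here.

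Total counts were 14203041 to 22688664 per library. Cardiomyocyte markers (Myh6, Tnnt2, Actc1, Ryr2, Tnni3) summed to 40926 to 55573 CPM (counts normalised to library size) in each library. Atrial markers (Myl7, Sln, Myl4) summed to 23.0 to 484 CPM, and 4 libraries exceeded 80 CPM of Myl7, namely Control 5, Control 6, Isoproterenol 5 and Isoproterenol and minocycline 2. Calls of members below are also given without these libraries where that changed them. Calls of single genes outside the members, in the other lists or among the markers, were not examined without these libraries. In bulk tissue, fewer cells of a type and less RNA per cell cannot be told apart.

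Promoter sequences are shown for the called members with a RefSeq entry, with letters of the CRE marked. Whether these letters bear on the changes was not tested. Capitals mark TGACG, with which the full CRE TGACGTCA begins, or its reverse complement CGTCA. The Fos stretch is chr12:85473740-85473889 (plus strand), the Junb stretch chr8:84978749-84978898 (minus strand) and the Nr4a3 stretch chr4:48045055-48045152 (plus strand), all in GRCm38.p6, 5′ to 3′ on the gene's strand. Positions count back from the RefSeq start. The Nr4a3 stretch was cut at the deposited gene start (48045153), which lies before the RefSeq start.
Fos: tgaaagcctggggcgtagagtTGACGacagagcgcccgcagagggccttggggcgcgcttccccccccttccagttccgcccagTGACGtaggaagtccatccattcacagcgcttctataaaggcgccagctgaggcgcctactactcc
Junb: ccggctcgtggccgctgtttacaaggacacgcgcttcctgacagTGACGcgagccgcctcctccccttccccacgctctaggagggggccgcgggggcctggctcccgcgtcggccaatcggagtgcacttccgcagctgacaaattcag
Nr4a3: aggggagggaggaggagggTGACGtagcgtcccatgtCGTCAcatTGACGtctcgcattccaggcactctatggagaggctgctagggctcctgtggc

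The marked letters begin at positions -129 and -66 in Fos, at -106 in Junb and at -231, -213 and -205 in Nr4a3. Of the 8 members with a RefSeq promoter entry, 6 held TGACG on either strand in the window of 300 bases from 250 before to 50 after the start. The same letters occurred in 20.8% of 32851 promoters of that length. Promoters were not matched to the members in base composition, here or for the letters below. Nr4a3 and Nr4a1 each held 4 copies in this window, a number reached by 0.231% of all promoters. For Nr4a3 the stretch shown holds 3 of them, and part of the window lies within the deposited gene. The longer TGACGT, which contains TGACG, occurred in Fos, Atf3 and Nr4a3 against 7.51% of promoters, with 3 copies in Nr4a3. The full CRE TGACGTCA, the AP-1 site TGANTCA, the NBRE AAAGGTCA and the CArG box of serum response factor were in 0 of the 8 windows, against 1.79%, 7.81%, 1.51% and 1.63% of promoters. Egr1 and Ier2 had no RefSeq promoter entry, and sequence outside these windows was not searched, so that sites there would be missed. The EGR site GCGNGGGCG, searched on both strands like the others, was in 2 of 8 windows against 5.55% of promoters.

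Among the members, Jund and Jun had the highest transcript levels and Fosb the lowest. In the authors' TPM values, which correct for gene length and so allow genes to be compared, Jund averaged 38.2 ± 8.92, Jun 26.2 ± 6.85 and Fosb 0.925 ± 0.815 over all libraries (SD, n = 18). Nr4a1 and Egr1 followed Jun at 20.2 ± 14.99 and 20.1 ± 9.07 TPM. Ier2, Junb, Atf3, Fos and Nr4a3 lay between 16.4 and 7.15 TPM on average.

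Few neighbours in this order were separated by more than their spread. In control, 7 of 9 neighbouring pairs differed by less than the larger of their SDs, as did 8 of 9 after isoproterenol and 7 of 9 after isoproterenol and minocycline. Junb moved from the seventh place in control (8.51 ± 2.33 TPM) to the fourth after both drugs (21.5 ± 5.19 TPM). Fosb was last in each group, at 0.498 ± 0.436, 1.32 ± 1.22 and 0.958 ± 0.406 TPM (SD, n = 6 each).

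Isoproterenol versus control compared hearts after 21 days of agonist infusion with hearts after saline. Junb and Nr4a3 rose, and the other 8 members did not pass the test. Junb rose 1.77-fold and Nr4a3 3.81-fold. Of 10 members 2 were called higher and 0 lower, and 6.94% of 13281 genes tested were called higher in this comparison (5.62% lower, 12.6% in either direction). A call is an adjusted p under 0.05 by edgeR (quasi-likelihood F test, Benjamini-Hochberg over all genes tested). In 0 of 10 members were the 2 groups free of overlap, against 6.9% of all genes (3.66% higher, 3.25% lower). The median log2 fold change was 0.55 over the members and 0.0011 over all genes.

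Junb, an AP-1 subunit that often dampens Jun activity (ENSMUSG00000052837, chromosome 8, 84974484 to 84978718), had 8.41, 14.5 and 17.9 CPM as lowest, median and highest value in control. The same values were 17.6, 24.1 and 33.0 CPM after isoproterenol. All but 1 isoproterenol library lay above the highest control library. The log2 fold change was 0.82 (SE 0.19, adjusted p = 0.00751, edgeR), with 6 of 6 libraries above the control mean.

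The Junb call holds a limit of annotation. Prdx2, a peroxidase gene on the opposite strand, overlaps Junb and has 60912 counts against 7907 for Junb over all libraries. Whether counting used strand is not given in the sources used here, so reads of the overlap cannot be assigned with certainty. Prdx2 itself was at 177 ± 5.28 CPM in control and 177 ± 9.33 CPM after isoproterenol (log2 fold change 0.0017, SE 0.046, adjusted p = 0.987, edgeR).

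Nr4a3 (ENSMUSG00000028341, chromosome 4, 48045153 to 48086447) encodes NOR1, an orphan receptor induced by cyclic AMP in muscle. Its lowest, median and highest values were 3.53, 6.98 and 27.1 CPM in control. After isoproterenol they were 15.3, 30.6 and 86.0 CPM. The groups overlapped through Control 1, the highest control library, and 4 of 6 isoproterenol libraries exceeded it.

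Nr4a3 had a log2 fold change of 1.93 (SE 0.50, adjusted p = 0.0198, edgeR), with 6 of 6 libraries above the control mean. Without Control 1 the log2 fold change was 2.52. Without the 4 libraries above 80 CPM of Myl7 it was 1.82 and no longer passed (adjusted p = 0.129), a fit on fewer libraries.

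**Figure D1:**
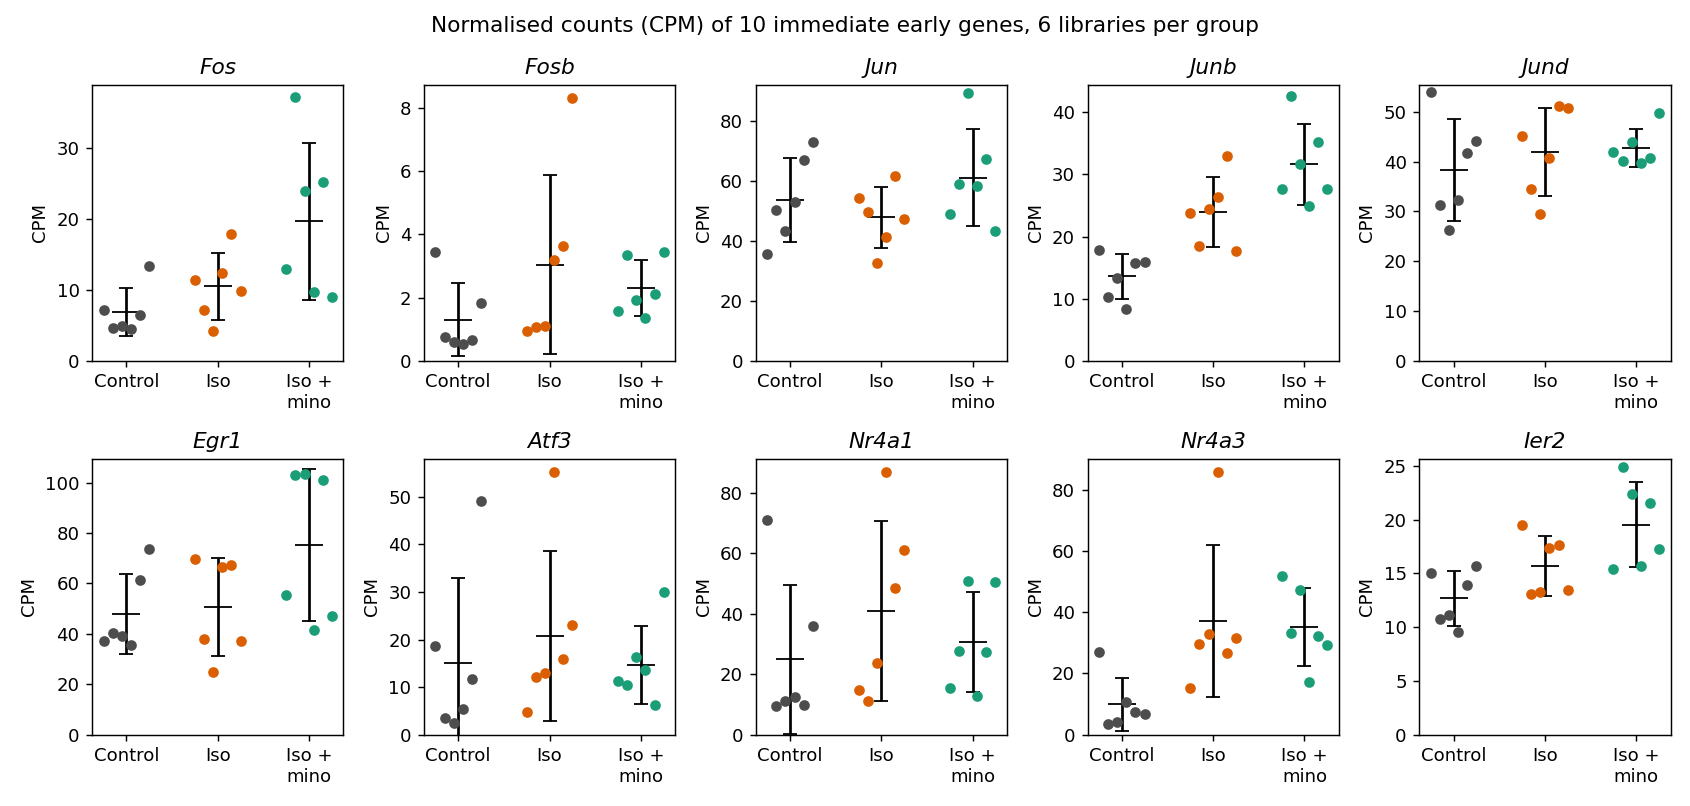
Normalised counts in CPM (vertical axis, linear from 0) of each member in the 6 libraries of control, isoproterenol (Iso) and isoproterenol and minocycline (Iso + mino). Points are libraries, the horizontal mark is the mean and the bars are 1 SD, which the axis clips at 0 for Atf3. Junb after both drugs (24.9 to 42.7 CPM) lies above each control library (8.41 to 17.9 CPM), while the groups of the other 9 members overlap.

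The remaining Fos and Jun family members did not pass the test after isoproterenol alone. Fos, the founding AP-1 partner of Jun, was at 6.87 ± 3.40 CPM in control and 10.5 ± 4.67 CPM after isoproterenol (log2 fold change 0.62, SE 0.42, adjusted p = 0.367, edgeR). Fosb was at 1.30 ± 1.15 and 3.04 ± 2.84 CPM (log2 change 1.26, SE 0.57, adjusted p = 0.161). It passed only in the fit without Control 1, its highest control library (log2 fold change 1.81, adjusted p = 0.0463).

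Jun and Jund were the members with the highest TPM. Jun was at 53.7 ± 14.0 and 47.8 ± 10.1 CPM and was the only member with a negative log2 fold change (-0.17, SE 0.19, adjusted p = 0.613, edgeR). Jund was at 38.3 ± 10.2 and 42.0 ± 8.80 CPM (log2 change 0.13, SE 0.16, adjusted p = 0.629).

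Among the other classes, Egr1 was at 47.9 ± 15.8 and 50.6 ± 19.5 CPM (log2 change 0.078, SE 0.31, adjusted p = 0.903, edgeR). Atf3 was at 15.2 ± 17.7 and 20.7 ± 17.9 CPM (log2 change 0.48, SE 0.68, adjusted p = 0.696). The SD of Atf3 was larger than its mean in control, so that a change of the size seen could not be resolved. Nr4a1, the closest relative of Nr4a3 on this list, was at 24.97 ± 24.7 and 40.9 ± 29.9 CPM (log2 change 0.73, SE 0.62, adjusted p = 0.483). Ier2 was at 12.7 ± 2.54 and 15.7 ± 2.78 CPM (log2 change 0.31, SE 0.15, adjusted p = 0.182).

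Isoproterenol and minocycline versus control shares the control libraries with the comparison above. Junb, Ier2, Fos and Nr4a3 rose, by 2.34-, 1.55-, 2.91- and 3.61-fold. Of 10 members 4 were called higher and 0 lower, against 10.2% of all genes called higher (9.05% lower, 19.3% in either direction). The median log2 fold change was 0.64 over the members and 0.0035 over all genes.

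Junb had 24.9, 29.6 and 42.7 CPM as lowest, median and highest value after both drugs. It was the member whose values did not overlap with control, which held for 3.55% of all genes in this direction (3.59% in the other, 7.14% in either). Its log2 fold change was 1.22 (SE 0.19, adjusted p = 1.89e-04, edgeR). Prdx2, the overlapping gene, was at 181 ± 5.70 CPM (log2 change 0.037, adjusted p = 0.617).

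Fos (ENSMUSG00000021250, chromosome 12, 85473890 to 85477273) had 4.51, 5.74 and 13.5 CPM as lowest, median and highest value in control and 8.998, 18.5 and 37.3 CPM after both drugs. Its 3 highest libraries of the treated group exceeded each control library, and the others overlapped with Control 6. The log2 fold change was 1.54 (SE 0.41, adjusted p = 0.0159, edgeR), with 6 of 6 libraries above the control mean. The library with the highest Fos in each group, Control 6, Isoproterenol 5 and Isoproterenol and minocycline 2, was among the 4 above 80 CPM of Myl7. Fos still passed without those 4 libraries.

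Ier2 (ENSMUSG00000053560, chromosome 8, 84661331 to 84662852) had 9.55, 12.5 and 15.7 CPM as lowest, median and highest value in control and 15.5, 19.4 and 24.9 CPM after both drugs. The groups overlapped narrowly, with 4 of 6 treated libraries above the highest control library. The log2 fold change was 0.63 (SE 0.15, adjusted p = 0.00546, edgeR), with 6 of 6 libraries above the control mean.

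Nr4a3 had 17.1, 32.8 and 51.9 CPM as lowest, median and highest value after both drugs, and 5 of 6 libraries lay above Control 1. The log2 fold change was 1.85 (SE 0.50, adjusted p = 0.0174, edgeR), with 6 of 6 libraries above the control mean. It was 2.45 without Control 1, and 1.69 without the 4 libraries above 80 CPM of Myl7, where it did not pass (adjusted p = 0.117).

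Egr1 reached 75.2 ± 30.2 CPM after both drugs but did not pass (log2 fold change 0.65, SE 0.31, adjusted p = 0.155, edgeR). Its 6 values fell apart into 3 libraries from 101 to 103 CPM and 3 from 41.4 to 55.6 CPM. Fosb was at 2.30 ± 0.893 CPM (log2 change 0.88, SE 0.58, adjusted p = 0.306). Jun, Jund, Nr4a1 and Atf3 had log2 fold changes of 0.19, 0.16, 0.32 and -0.018 and did not pass either (adjusted p = 0.505 to 0.990).

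**Figure D2:**
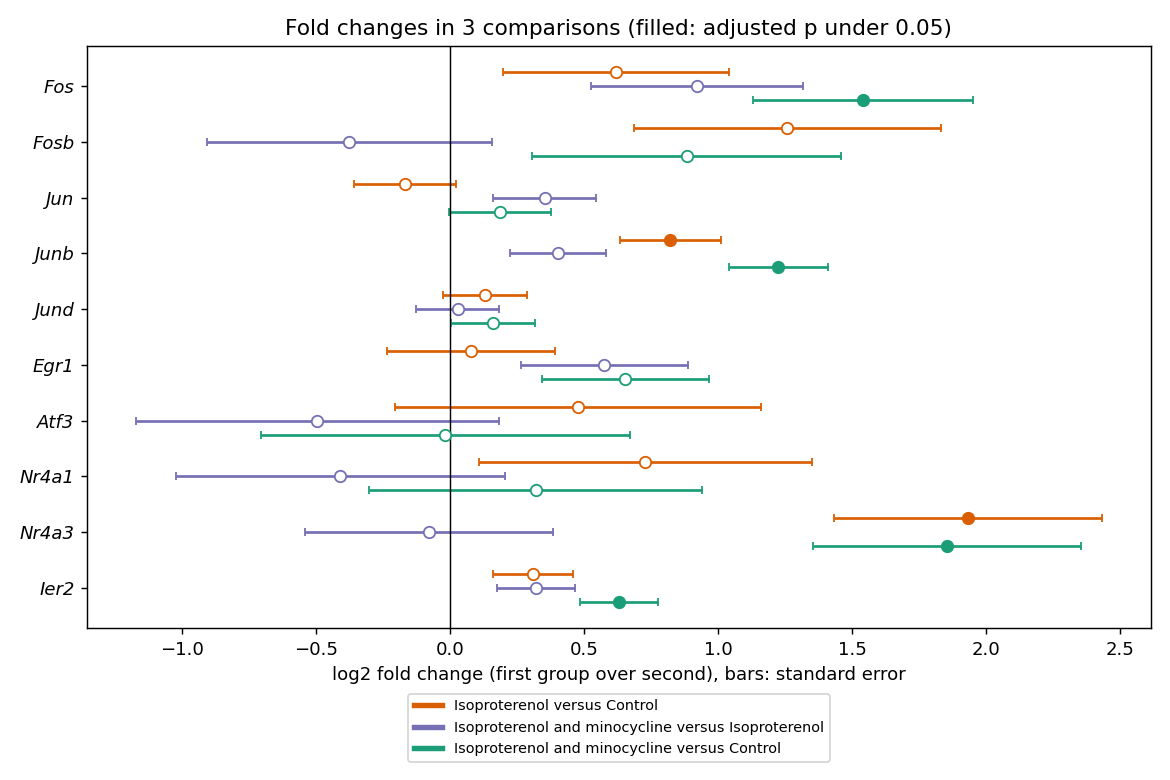
Log2 fold changes (horizontal axis) of the 10 members (vertical axis) in 3 comparisons, from edgeR, with bars of 1 standard error. Filled points passed an adjusted p of 0.05: Junb and Nr4a3 after isoproterenol, these together with Fos and Ier2 after both drugs, and no member when minocycline was added to isoproterenol.

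Isoproterenol and minocycline versus isoproterenol compared infused hearts with and without the antibiotic. No member passed the test: 0 of 10 were called by edgeR, DESeq2 or limma voom, and 3 had an unadjusted p under 0.05 in edgeR. In the same fit, 1010 of 13281 genes had an unadjusted p under 0.05. Over all genes 0.0527% were called in either direction (7 of 13281), 0.00753% higher and 0.0452% lower. The groups overlapped in all 10 members, and 0.346% of all genes showed no overlap. The median log2 fold change was 0.17 over the members and -0.0026 over all genes.

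The 3 with an unadjusted p under 0.05 were Fos, Junb and Ier2, each higher with minocycline. Fos was at 10.5 ± 4.67 CPM without and 19.7 ± 11.1 CPM with minocycline (log2 fold change 0.92, SE 0.40, adjusted p = 0.607, edgeR). Junb was at 23.96 ± 5.62 and 31.6 ± 6.53 CPM (log2 change 0.40, SE 0.18, adjusted p = 0.615). Ier2 was at 15.7 ± 2.78 and 19.5 ± 3.94 CPM (log2 change 0.32, SE 0.15, adjusted p = 0.627). That Fos and Ier2 passed against control with both drugs and not with isoproterenol alone is therefore not shown to be a difference between the treated groups.

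Nr4a3 stood at like levels in both treated groups, 37.1 ± 24.8 and 35.2 ± 12.7 CPM (log2 change -0.077, SE 0.46, adjusted p = 0.975, edgeR). Egr1 and Jun had log2 fold changes of 0.58 and 0.35, and Fosb, Atf3 and Nr4a1 of -0.38, -0.50 and -0.41. Jund was at 42.0 ± 8.80 and 42.7 ± 3.79 CPM (log2 change 0.028, SE 0.16).

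The members varied between libraries of a group more than most genes of their abundance. The biological coefficient of variation, the spread within groups beyond counting error, was 79.0% for Atf3, 71.4% for Nr4a1, 63.8% for Fosb, 57.3% for Nr4a3 and 47.0% for Fos. It was 36.9% for Egr1 and 17.2 to 22.9% for Jun, Junb, Jund and Ier2. The 500 genes nearest in abundance to each member had medians of 9.06 to 18.01%, and 90.0 to 100% of them lay below the member. Nr4a1, for example, ranged from 9.50 to 70.9 CPM among control libraries.

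**Figure D3:**
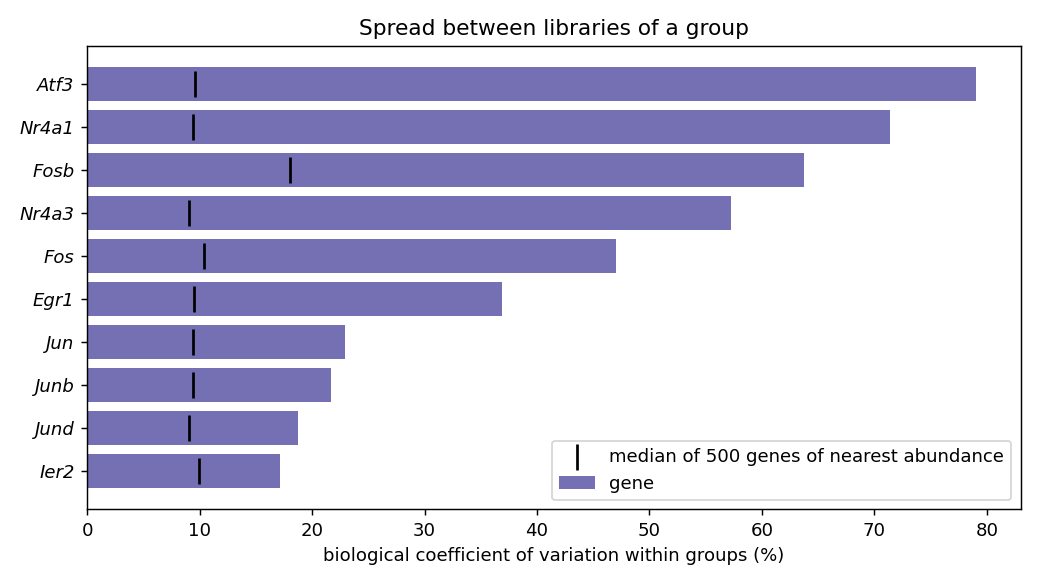
Biological coefficient of variation within groups in percent (horizontal axis, from 0) for each member (bars), with the median of the 500 genes nearest in abundance (vertical marks). Atf3 is at 79.0% and Ier2 at 17.2%, and each bar extends past its mark.

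Members also varied together. With group means removed from log2-CPM, the 45 pairs had a median Pearson r of 0.43, and 42 were positive. For comparison, the median over all pairs of 665 genes taken evenly from the tested genes was -0.0015. An r over 0.5 was found in 17 of the 45 member pairs, against 6.49% of the pairs among the 665 genes. The 665 genes were not matched to the members in abundance or spread. After a permutation test within groups (100000 permutations, 2-sided, adjusted over the 45 pairs), 12 pairs passed, each with a positive r that also held its sign within each group.

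Fos and Egr1 were the closest pair (Pearson r = 0.90, permutation p = 1e-05, the smallest that these permutations can give, adjusted p = 4.50e-04, n = 18). Their Spearman rho was 0.90 (permutation p = 4.00e-05), and r was 0.88 without the 2 libraries farthest from the median in Fos. Fosb and Nr4a1 had r = 0.85 and rho = 0.83 (permutation p = 3.40e-04 and 4.20e-04, adjusted p = 0.00378), with r = 0.84 without the 2 farthest libraries. Junb and Ier2 had r = 0.84 and rho = 0.79 (permutation p = 7.00e-05 and 2.40e-04, adjusted p = 0.00157), with r = 0.83 without the 2 farthest libraries.

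Nr4a1 and Nr4a3, of the same receptor family, had r = 0.65 and rho = 0.55 (permutation p = 0.00858 and 0.0312, adjusted p = 0.0386). The rho did not pass after adjustment (adjusted p = 0.0852). Without the 2 farthest libraries r was 0.35, so that this relation rests on those libraries. Over the 12 pairs, r without the 2 farthest libraries was 0.35 to 0.88. Without the 4 libraries above 80 CPM of Myl7, 7 pairs passed.

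The pairs that passed with group means removed fell within blocks of members, described after the correlations were seen. Fos, Egr1, Ier2, Junb and Jun held 8 of them (10 pairs, median r 0.70, values from 0.14 to 0.90). Fosb, Jund, Atf3, Nr4a1 and Nr4a3 held the other 4 (10 pairs, median r 0.63, values from 0.37 to 0.85). Between the blocks 0 of 25 pairs passed, with a median r of 0.27 and values from -0.27 to 0.52. The values within and between blocks therefore overlapped. Jun and Nr4a3 had the lowest r of all pairs.

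**Figure D4:**
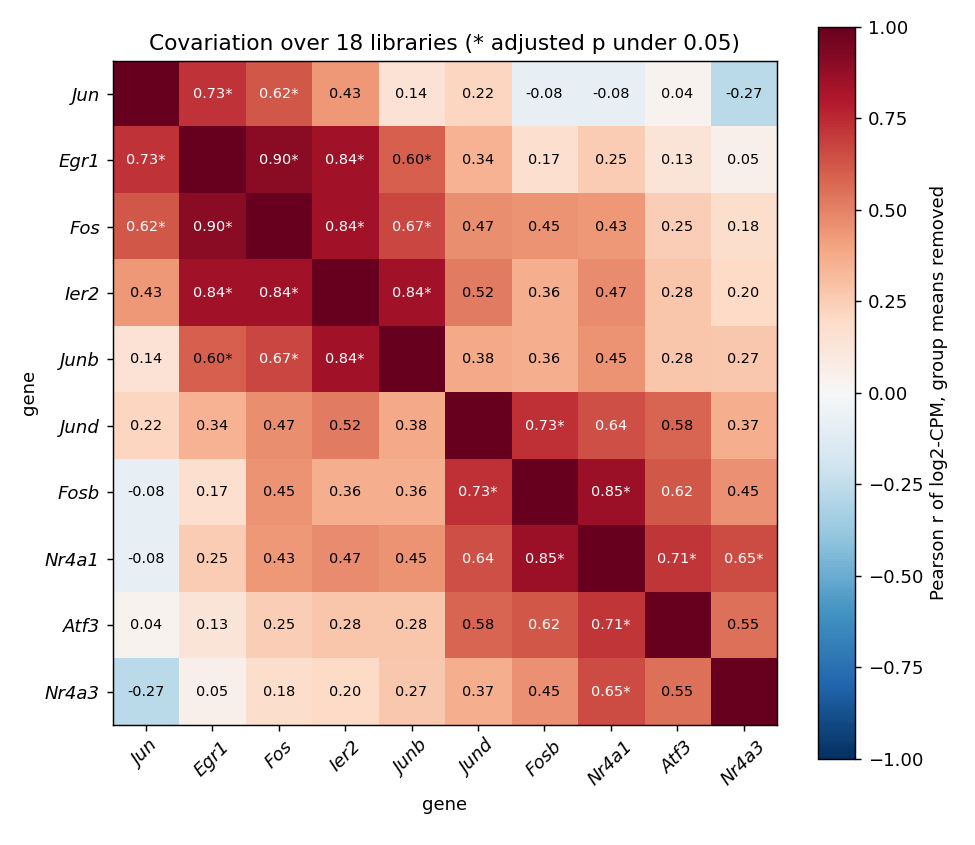
Pearson r between each pair of members over 18 libraries after removal of group means (colour and number in each cell, rows and columns are genes, the diagonal is 1). Asterisks mark the 12 pairs with an adjusted permutation p under 0.05. They lie within Jun, Egr1, Fos, Ier2 and Junb or within Jund, Fosb, Nr4a1, Atf3 and Nr4a3.

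Genes outside the list were ranked by their correlation with the mean of the members, each scaled to 1 SD with group means removed, over 18 libraries and 12233 genes of at least 1 CPM. Btg2, an antiproliferative early response gene, was first with r = 0.87. Micall1 and Arhgap35 followed with r = 0.86 and 0.85. Spata2, whose annotation overlaps the more abundant Rnf114, Dusp1, a phosphatase that switches off MAP kinases, Manba, Nfe2l2, a factor of the antioxidant response, and Bcor, a transcriptional corepressor, had r from 0.82 to 0.83. These values are a description, and depth and tissue composition of the libraries are shared by all genes. Btg2 and Dusp1 did not differ past the threshold in any comparison (adjusted p = 0.656 to 0.953 in edgeR).

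Of 48 other immediate early and early response genes tested, 4 rose and 0 fell after isoproterenol (median log2 fold change 0.16), a share near the 6.94% of all genes called higher. Socs3, which restrains JAK-STAT signalling, rose 2.12-fold, Cebpd, a bZIP factor of the acute phase, 1.98-fold, Dusp5, a phosphatase of nuclear ERK, 1.74-fold, and Tiparp, a target of the aryl hydrocarbon receptor, 1.30-fold. After both drugs 10 rose and 1 fell (median 0.20), where 10.2% of all genes were called higher and 9.05% lower. Socs3 rose 2.31-fold, Ctgf, a matricellular growth factor, 1.96-fold, Dusp5 1.94-fold and Ier5l 1.65-fold. When minocycline was added to isoproterenol, 0 of the 48 were called.

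Partners and relatives of AP-1 rose in 1 of 17 tested genes after isoproterenol and in 4 after both drugs, with 0 falls. Of all genes 6.94% and 10.2% were called higher in these comparisons, so the first count is no more than the background share. Atf5, a factor of the stress response whose annotation overlaps Nup62, rose 1.51-fold and 1.56-fold. Maff, a small MAF factor, rose 1.78-fold after both drugs, and Atf4, the effector of the integrated stress response, 1.16-fold. Some genes, Maff among them, are also in the list of other early response genes. The rise of Maff is therefore counted in both lists.

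Of 32 kinases and factors upstream of these genes that were tested, 2 rose and 3 fell after isoproterenol, and 3 rose and 4 fell after both drugs. These counts are near the background, which was 6.94% higher and 5.62% lower after isoproterenol and 10.2% higher and 9.05% lower after both drugs. Camk2d, the main cardiac CaM kinase II gene, fell 1.31-fold and 1.30-fold, and Mapk14, the p38α kinase, fell 1.22-fold in both comparisons. Mapk3, which encodes ERK1, rose 1.20-fold and 1.23-fold. Prkd1, a protein kinase D, fell 1.33-fold after isoproterenol, and Prkaca, a catalytic subunit of protein kinase A, fell 1.21-fold after both drugs.

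A list of 8 genes held EGR corepressors and nuclear receptors set beside the NR4A proteins. Of these, 2 rose and 1 fell after isoproterenol and 3 rose after both drugs, against the same background shares. Nab1 and Nab2, which bind EGR proteins and repress their targets, rose 1.20-fold and 1.78-fold after isoproterenol and 1.27-fold and 1.54-fold after both drugs, with the limit that Stat6 and Nemp1 overlap Nab2. Rxrg, a retinoid X receptor, fell 1.20-fold after isoproterenol, and Nr2f2 rose 1.33-fold after both drugs. Of 10 heat shock genes, markers of acute cell stress, 0 rose and 2 fell in each comparison with control, where 5.62% and 9.05% of all genes were called lower. These were the mitochondrial chaperones Hspd1 (1.40-fold and 1.55-fold) and Hspe1 (1.16-fold and 1.20-fold), whose annotations overlap.

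Some markers of other cell types rose in the treated groups, mainly those of macrophages and fibroblasts. The background shares were 6.94% and 10.2% of all genes higher after isoproterenol and after both drugs, and 5.62% and 9.05% lower. Of 5 macrophage markers, 4 rose in each comparison with control, and their sum was 80.7 to 97.8 CPM in control, 109 to 149 CPM after isoproterenol and 108 to 153 CPM after both drugs. Of 5 fibroblast markers, 2 rose after isoproterenol and 4 after both drugs, with sums of 628 to 876, 816 to 1139 and 774 to 1285 CPM in the same order. Of 5 smooth muscle and pericyte markers, 1 rose after isoproterenol and 2 after both drugs, and of 5 endothelial markers 0 and 1 rose. These counts are too small to set apart from the background shares. Of 5 cardiomyocyte markers 1 fell in each comparison with control. Their sum was 48461 to 55573 CPM in control, 41562 to 46093 CPM after isoproterenol, with no overlap, and 40926 to 51056 CPM after both drugs. None of the macrophage, fibroblast, smooth muscle, pericyte, endothelial or cardiomyocyte markers was at 0 in any library. No atrial or red blood cell marker, and none of the 2 neutrophil markers tested, was called in any comparison. The part of cell composition in the rises of Junb, Fos, Ier2 and Nr4a3 was not tested. Within groups, 0 of 80 correlations between a member and a marker sum passed after adjustment over them (lowest adjusted permutation p = 0.106), over 18 libraries. With group means removed, these correlations do not test the rises between groups. Pearson r with the cardiomyocyte sum was 0.60 for Fos, 0.56 for Ier2, 0.49 for Junb and 0.48 for Nr4a3. It was 0.63 for Egr1, which was not called in any comparison. These did not pass after adjustment (permutation p = 0.0251, 0.0297, 0.0347, 0.0270 and 0.0126, adjusted p = 0.238 to 0.253). Nr4a3 had r of -0.50, -0.47 and -0.51 with the fibroblast, endothelial and macrophage sums. These did not pass either (permutation p = 0.0189, 0.0223 and 0.0239, adjusted p = 0.238).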

How the data were processed

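The deposited table gives total counts and TPM per gene and library, both made by the authors, per the file headers. TPM values are scaled by gene length and to a common sum. Paired reads of 150 bases were trimmed and analysed with the RNA-seq module of CLC Genomics Workbench 21.0.3, per the labels' protocols. An edgeR step of unstated purpose appears in the submitters' processing notes. For genome build, annotation and strand setting, the entry is not given in the sources used here; 42754 of 48709 identifiers have the start and end of GENCODE M21 (GRCm38). Columns were matched by the number in the description field, and 0 per-sample columns matched no library. The authors' comparison columns were not used.

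The tests on counts used edgeR 4.0.16 under R 4.3.3 (filterByExpr, TMM, estimateDisp, robust glmQLFit and glmQLFTest) in 1 fit of 18 libraries, which kept 13281 genes. Standard errors are the log2 fold change divided by the square root of F. CPM uses TMM-scaled library sizes, and log2-CPM a prior count of 2. Alternatives were DESeq2 1.42.0, limma voom (limma 3.58.1), RLE scaling, other filters, only the 12 libraries compared, no mitochondrially encoded genes, no libraries above 80 CPM of Myl7, and each library left out. Code was tested on simulated data.

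Genes named are all members, up to 4 called genes per list with the smallest p, and the 8 most correlated genes; a gene named by this rule is not reported here. Members and lists were chosen with earlier results of these data known. The protocol text speaks of pooled RNA, so a library may not be 1 animal. All p-values therefore describe only variation among libraries. Identical counts were found in no within-group pair. Overlapping genes are named where they hold at least 20% as many counts.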

Additional observations from a re-analysis of the deposited data

Results flagged for a closer look

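In 6 of the 30 combinations of member and group, a single library stood far above the other 5, by the gap to its nearest neighbour relative to the whole range of the group. Chance gives this in about 1 in 20 groups where values are independent and normally distributed, which was not checked for these CPM values. Control 6 had 49.1 CPM of Atf3 (next 18.7 CPM) and 13.5 CPM of Fos (next 7.14 CPM). Control 1 had 27.1 CPM of Nr4a3 (next 10.7 CPM). Isoproterenol 4 had 55.2 CPM of Atf3 (next 23.0 CPM) and 86.0 CPM of Nr4a3 (next 33.1 CPM). Isoproterenol 6 had 8.32 CPM of Fosb (next 3.63 CPM). No library of isoproterenol and minocycline stood apart in this way, and no lowest library in any group did.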

How the results depend on the processing

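Of 600 refits of single members, 576 kept direction and side of the threshold. The calls of Junb in both comparisons with control, and of Fos and Ier2 after both drugs, held in each alternative and with each library left out. Without the 4 libraries above 80 CPM of Myl7, fewer libraries were fitted: called genes fell to 681 (from 1669) for isoproterenol, 1369 (from 2557) for both drugs and 1 (from 7) for added minocycline, called members after isoproterenol from 2 to 1, and correlated pairs from 12 to 7. Without removal of group means 22 pairs passed. That is more than the blocks described above hold, so pairs between the blocks passed in this setting. For added minocycline DESeq2 called 35 genes and the fit of 12 libraries 2.

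With single libraries left out, called genes ranged from 1079 (without Control 4) to 1673 for isoproterenol, 1789 to 2930 for both drugs and 1 to 13 for added minocycline, where leaving out any of Isoproterenol 2 to 6 or Isoproterenol and minocycline 1, 4, 5 or 6 moved the count by over 1.5 times. Called members ranged from 2 to 3 for isoproterenol. Signs of uncalled members turned as follows, and the cause was not tested. With limma voom, log2 fold changes were -0.0063 for Egr1 (isoproterenol), 0.20 for Nr4a3 (added minocycline) and 0.43 for Atf3 (both drugs), and Atf3 was 1.10 without the libraries high in Myl7. With single libraries left out they ranged from -0.033 to 0.24 for Egr1 and -0.11 to 1.33 for Atf3 (isoproterenol), from -0.56 to 0.23 for Fosb, -0.057 to 0.096 for Jund, -0.84 to 0.10 for Atf3 and -0.24 to 0.37 for Nr4a3 (added minocycline), and from -0.36 to 0.83 for Atf3 (both drugs). No paired analysis was possible because library numbers are not shared between groups. Fosb had 11 to 138 counts per library, the fewest among the members.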

Other observations

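Members were also set against the summed CPM of 8 lists of cell type markers, with group means removed. Of these 80 relations 0 passed after adjustment (lowest adjusted p = 0.106, for Jun against the neutrophil markers), and 14 had an unadjusted permutation p under 0.05. The neutrophil sum was 0.690 to 3.74 CPM, and 3 of its 4 markers were at 0 in at least 1 library. Egr1 against the smooth muscle and pericyte sum had Pearson r = -0.68 (permutation p = 0.00372, adjusted p = 0.149, n = 18) and Spearman rho = -0.63 (permutation p = 0.0121), with r = -0.67 without the 2 farthest libraries. Fos against the same sum had Pearson r = -0.65 (permutation p = 0.00909, adjusted p = 0.238) and Spearman rho = -0.63 (permutation p = 0.0126), with r = -0.61 without the 2 farthest libraries.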
